A study of Homo sapiens with 4 samples.

Results

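The Tet-dependent sites shared by wild-type (WT) and K120R p53 were 839 of the 4326 peaks called for WT p53 after tetracycline (Tet) treatment. A WT peak was a member when it overlapped, by at least 1 bp, a peak of K120R p53 in Tet-treated cells and overlapped no peak of WT p53 in untreated cells. The members were therefore selected on measured peak calls, and their peak heights are given as a description with no test. H1299, a human lung cancer cell line that has no endogenous p53, carried a Tet-inducible transgene for either WT p53 or K120R p53, in which lysine 120 is replaced by arginine. Binding was measured by chromatin immunoprecipitation and sequencing (ChIP-seq) with an antibody against p53, in cells left untreated or given Tet for 24 h. Each of the 4 conditions (WT untreated, WT Tet-treated, K120R untreated, K120R Tet-treated) was 1 library with its own input, so that no difference between conditions could be set against replicate error.

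p53 is a tumour suppressor that binds DNA as a tetramer and activates genes of cell cycle arrest, apoptosis, DNA repair and metabolism. Its response element (RE) consists of a pair of decamers, each made of 3 purines, a C, a pair of A/T bases, a G and 3 pyrimidines. Lysine 120 lies in the DNA-binding domain at the surface that meets the RE, and its change to arginine leaves the charge in place.

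The ChIP libraries held 33059650 to 34857204 tags and the inputs 32480936 to 41132992. The lists held 488 peaks for WT untreated, 12 for K120R untreated and 2023 for K120R Tet-treated cells. Of all WT Tet-treated peaks, 25.2% overlapped a K120R Tet-treated peak and 90.7% overlapped no WT untreated peak; of the Tet-dependent ones (no WT untreated peak), 21.4% overlapped a K120R peak and are the members described here. These shares follow from the rule and carry no result. The number of members rested on the caller's threshold: 265 remained when a -log10 q-value of at least 10 was required in both Tet-treated lists. Fragment length as estimated by the peak caller was 170 bp in the WT Tet-treated library, 68 bp in the K120R Tet-treated library and 64 bp in both untreated ones, so that peak widths, pileups and fold enrichments were not on 1 scale between lists. The estimates of 64 and 68 bp were below the tag length of 75 bp and are not taken as true fragment lengths. The members were set beside 2 other classes of WT Tet-treated peak. The first, the K120R-unbound Tet-dependent sites, held 3086 peaks with neither a K120R nor an untreated peak. Unbound here means only that no overlapping K120R peak was called. The study used the term for sites at previously listed REs, which 649 of these peaks held. The second, the shared sites also bound untreated, held 253 peaks that overlapped both.

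The best RE in a window of 100 bp on each side of the WT summit (the base of highest signal) was read from the GRCh37 reference without a spacer between the decamers, and counted as an RE with at most 3 mismatches. The following member REs are shown because they have A or T at each of positions 3, 8, 13 and 18, which flank the 4-base cores and are called the flanking positions below. All sequences are written 5′ to 3′ on the plus strand unless stated, and capitals mark the flanking positions, counted from the 5′ end.
MDM4 (chr1:204494174-204494193): agAcatgTtccaAcatgTtg
TNFAIP8 (chr5:118659556-118659575): agActtgTtgagActtgTct
CDH8 (chr16:61967338-61967357): taAcatgTccagAcatgTat
DEGS2 (chr14:100613348-100613367): atTcatgTacgaAcatgTtt
Each of these held 0 G/C bps there, which 259 of the 670 member REs did, the most frequent number.

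For contrast, the 5 K120R-unbound sites of largest WT fold enrichment among those with at most 1 mismatch are shown.
EDDM3A (chr14:21220291-21220310): tgAcaagCctagAcatgCct
C1orf100 (chr1:244402899-244402918): ggGcaggCccagActtgTcc
SEMA3E (chr7:83338349-83338368): tgActtgTtcaaAcatgCcc
BRD1 (chr22:50154114-50154133): ggAcatgCctaaAcatgCct
SIPA1L1 (chr14:72240880-72240899): tgActtgCccagAcatgCcc
They held 1 (SEMA3E) or 2 G/C bps at the capitals and WT fold enrichments of 26.3 to 33.8. The RE nearest BRD1 had 0 mismatches, so that a full match to the consensus was present without a K120R peak.

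The CDKN1A locus, which encodes the cell cycle inhibitor p21, held sites of several kinds within 10 kb. The member lay in a UTR exon 3.9 kb from a start site, had 1 G/C bp and 3 mismatches, and reached a fold enrichment over input of 18.7 for WT and 9.26 for K120R p53. A site 18 bp from a start had 0 G/C bps and was also bound untreated, with 49.7 for WT, 34.4 for K120R and 40.2 for untreated WT cells. An intronic site 858 bp from a start was bound untreated as well, with 20.2 for WT and 7.02 for K120R p53. A site 9.2 kb upstream had 3 G/C bps, a WT fold enrichment of 19.01 and no K120R peak.
Member (chr6:36650420-36650439): ctGcaagTtgggActtgTcc
Also bound untreated (chr6:36644226-36644245): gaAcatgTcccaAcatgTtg
K120R-unbound (chr6:36635035-36635054): agAcaagCccggGcaagGcc
The member and the K120R-unbound site were thus of like height for WT p53, with 1 and 3 G/C bps.

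An RE of at most 3 mismatches was found in 670 of 839 members, 79.9% (95% Clopper-Pearson interval 77.0 to 82.5). Among the K120R-unbound sites the share was 78.6%, a difference of 1.21 percentage points whose 95% interval (Newcombe) ran from -1.97 to 4.18. In a window of 50 bp on each side of the summit the difference was 4.17 points and its interval, 0.597 to 7.61, excluded 0. The shared sites also bound untreated had an RE in 95.3%, and the members differed from them by -15.4 points (interval -18.9 to -11.2). Across all non-overlapping windows of the same length in the reference the share was 4.63%. With at most 1 mismatch the shares were 18.2% of members, 15.6% of K120R-unbound sites, 57.7% of shared sites also bound untreated and 0.0425% of reference windows. An RE with 0 mismatches occurred at 19 members, 2.26%, against 4.47% of K120R-unbound sites, a difference of -2.21 points (interval -3.34 to -0.791). These intervals, and those below, cover only counting error over sites, or over single decamers for cores and single pairs of mirror positions. Sites of 1 library are not replicates of a condition.

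**Figure D1:**
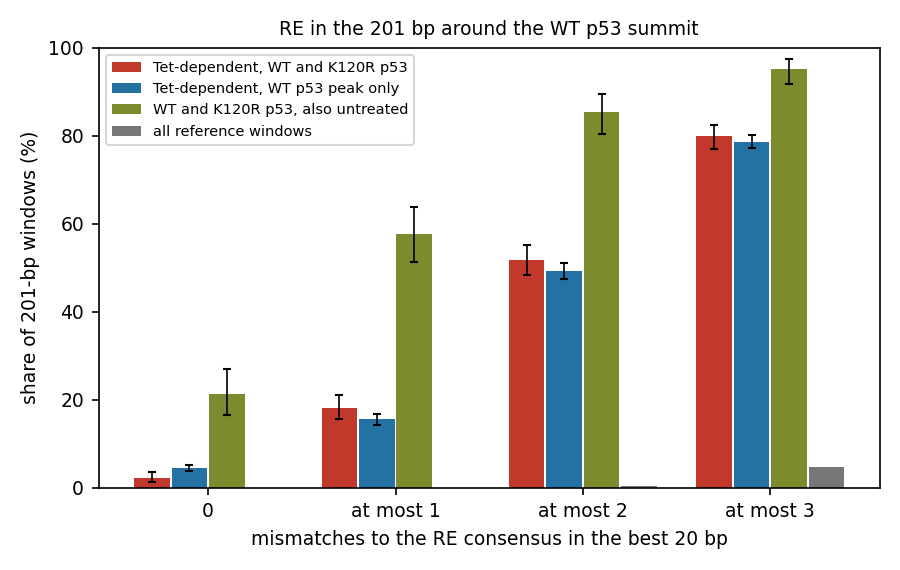
Share of windows around the WT summit (y axis, %) whose best 20 bp had at most the number of mismatches on the x axis, for the 3 classes of WT Tet-treated site and for all reference windows; error bars are 95% Clopper-Pearson intervals. The red and blue bars lie close together at 79.9% and 78.6% for at most 3 mismatches, and at 0 the red bar (2.26%) lies below the blue (4.47%). The olive bars lie above both.

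The rule did not use sequence, and the REs of the members had a lower G/C content at the flanking positions than those of both other classes. At the flanking positions the mean G/C content per RE was 23.5% ± 23.05 in the members (SD over 670 REs) and 50.9% ± 25.4 in the K120R-unbound sites (2427 REs). The difference was -27.4 percentage points, with a 95% interval of -29.4 to -25.4. The shared sites also bound untreated had 39.4% ± 22.9 (241 REs), and the members differed from them by -15.9 points (interval -19.3 to -12.6). Against this class the gap was not particular to the flanking positions, with -22.4 points at positions 2 and 19 (interval -27.0 to -17.5), -21.7 at 9 and 12 (interval -26.4 to -16.7) and -8.07 at 10 and 11 (interval -13.1 to -2.89). Over all REs of at most 3 mismatches in the reference the mean was 46.1%. These 4 positions had been chosen by the study on these same libraries, so that this difference is not independent evidence for them.

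Against the K120R-unbound sites, the members departed most at positions 3 and 18, where 25.7% of bps were G/C against 60.2% at K120R-unbound sites. At positions 8 and 13 the values were 21.3% and 41.5%. Outside the flanking positions, at 2 and 19, the members had 51.0% and the K120R-unbound sites 72.8% (difference -21.8 points, interval -24.7 to -18.8). This gap rested in part on 1 family of copied REs, described below, without which the values were 49.9% and 62.8%. Smaller differences of the same sign lay at positions 9 and 12 (-7.75 points, interval -10.8 to -4.73) and 10 and 11 (-11.6, interval -14.6 to -8.65). Positions 1 and 20 went the other way (difference 6.39, interval 3.37 to 9.40). Within the 8 core bases the difference was -0.155 points (interval -0.714 to 0.404). Over the whole window G/C content was 43.2% in the members and 46.9% in the K120R-unbound sites, a gap of -3.74 points (interval -4.51 to -2.98). The surrounding sequence therefore moved with the RE. Within quartiles of window G/C content the difference at the flanking positions was -16.7, -22.4, -26.3 and -22.8 points, smallest in the quartile of lowest window G/C content.

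**Figure D2:**
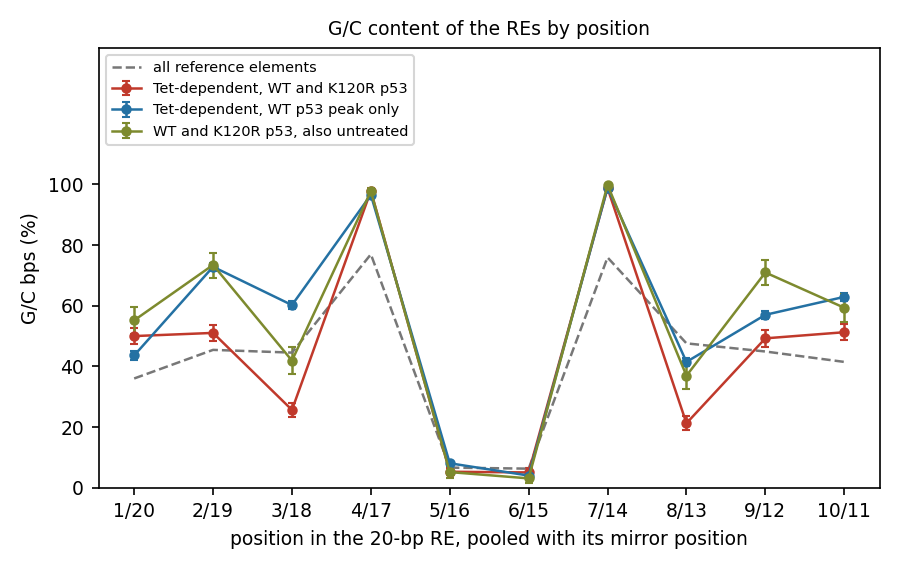
G/C bps (y axis, %) at each position of the 20-bp RE, pooled with its mirror position because the RE reads alike on both strands (x axis), for the 3 classes and for all reference REs of at most 3 mismatches. Bars are 95% Clopper-Pearson intervals, with both decamers of each RE counted singly. The red line of the Tet-dependent sites of WT and K120R p53 lies lowest of the 3 classes at positions 2/19, 3/18 and 8/13 to 10/11, and the 3 lines lie close together at the core positions 4/17 to 7/14.

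Read the other way round, the share of Tet-dependent WT sites that also had a K120R peak went down with each G/C bp at the flanking positions. Of sites with 0 G/C bps 56.6% (259 of 458) had one, of sites with 1 33.2% (236 of 711), with 2 12.7% (136 of 1073), with 3 4.92% (35 of 711) and with 4 2.78% (4 of 144). The intervals of neighbouring numbers did not overlap up to 3, and those of 3 and 4 did. Over all Tet-dependent sites with an RE the share was 21.6%, and over those with no RE 20.4%. The number of mismatches gave no such order, with 12.1% at 0, 28.2% at 1, 21.3% at 2 and 20.6% at 3 mismatches.

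Both pairs of positions contributed to the count. With 0 G/C bps at 8 and 13, the share with a K120R peak was 56.6% at 0, 36.0% at 1 and 8.46% at 2 G/C bps in positions 3 and 18. With 0 G/C bps at 3 and 18, it was 30.3% at 1 and 13.8% at 2 G/C bps in positions 8 and 13. Positions 2 and 19 separated sites that held 2 G/C bps at the flanking positions and did not separate those that held 0. With 0 the shares were 57.7%, 57.3% and 53.6% for 0, 1 and 2 G/C bps at 2 and 19. With 2 they were 25.7%, 18.6% and 8.10%, and 25.7%, 17.9% and 12.8% without the RE family described below. All 93 sites with G/C at each of the 6 positions (2, 3, 8, 13, 18 and 19) lacked a K120R peak, which allows a share of up to 3.89% by the exact interval.

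**Figure D3:**
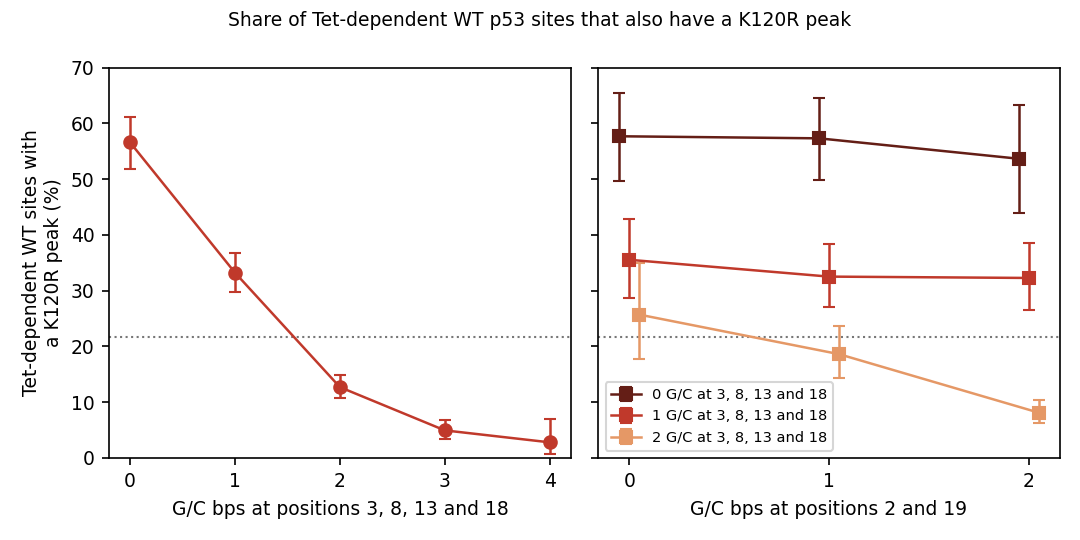
Share of Tet-dependent WT sites with an RE that also had a K120R peak (y axis, %) against how many of the flanking positions were G/C (left) and how many of positions 2 and 19 were, drawn separately for 0, 1 and 2 G/C bps at the flanking positions (right); bars are 95% Clopper-Pearson intervals and the dotted line is the share over all such sites, 21.6%. On the left the points go down from 56.6% to 2.78%, and on the right the lines for 0 and 1 G/C bps are nearly flat.

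The 4-base cores differed less, with both cores of each RE counted singly. CATG made up 60.1% of member cores and 61.8% of those at K120R-unbound sites (difference -1.77 points, interval -4.75 to 1.16). CAAG, counted with its complement CTTG, made up 25.9% against 19.9% (difference 6.04, interval 3.49 to 8.69). CTAG was rare, at 0.746% of member cores (difference -1.36, interval -1.91 to -0.633). Of member REs 76.0% had no mismatch in either core, against 69.1% of K120R-unbound REs (difference 6.83, interval 3.00 to 10.4). With both cores intact 45.2% of sites with 0 or 1 G/C bps had a K120R peak, against 4.15% of those with 3 or 4; with a core mismatch the shares were 34.0% and 5.53%.

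Many REs were copies of one another. Of 670 member REs 568 had a 20-bp sequence found at only 1 WT Tet-treated peak of any class, as had 1561 of 2427 REs at K120R-unbound sites. These are the commonest member RE, the next commonest and the commonest RE of the K120R-unbound sites, each given on the strand listed first in alphabetical order.
Commonest in members: agAcatgTctgtTcatgTcc
Next in members: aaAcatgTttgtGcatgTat
Commonest in K120R-unbound sites: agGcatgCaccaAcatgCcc
They held 0, 1 and 3 G/C bps at the capital positions and 2 mismatches each. The first occurred at 16 WT Tet-treated peaks, 12 of them members and 4 K120R-unbound; examples were the sites nearest CD200R1L (chr3:112620133-112620152, minus strand) and ANP32D (chr12:48859035-48859054, minus strand). Its members ranged from 9.90 to 25.8 in WT and from 4.51 to 15.4 in K120R fold enrichment. The second occurred at 11 peaks, 8 of them members, among them a site 11.7 kb from the start of the chemokine gene CCL4 and downstream of the gene (chr17:34442980-34442999, plus strand). The third occurred at 69 peaks, of which 2 were members and 64 K120R-unbound, for example in an intron of ERMP1 (chr9:5797178-5797197, plus strand).

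Counting copies with up to 3 base differences, the third sequence accounted for 755 peaks: 677 K120R-unbound sites, 27.9% of the REs of that class, and 21 members, 3.13% of theirs. Of these Tet-dependent copies 3.01% (interval 1.87 to 4.56) had a K120R peak, and the WT fold enrichment of the K120R-unbound copies had a median of 7.17, against 6.64 over all K120R-unbound sites. Without this family the G/C content at the flanking positions was 22.5% in 649 members and 45.96% in 1750 K120R-unbound sites, a difference of -23.4 points. With REs found at only 1 peak the difference was -22.0 points (interval -24.2 to -19.7). The share with a K120R peak then still ran from 55.4% at 0 to 2.44% at 4 G/C bps. Which repeat families the copies belong to was not analysed here.

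A different feature, chosen after the windows were read, was tandem copies of a 5-base unit. An exact repeat of any such unit over at least 25 bp lay in the windows of 15 members, 1.79% (interval 1.00 to 2.93), and of 8 K120R-unbound sites, 0.259% (interval 0.112 to 0.510). It was found at 1 of the 253 shared sites also bound untreated and in 0.116% of reference windows. Of the members without an RE 11 held one, 6.51% (interval 3.29 to 11.3), against 4 of 659 K120R-unbound sites without an RE, 0.607% (interval 0.166 to 1.55). The unit was TGTCT, on either strand, at 6 members, where the repeat spanned 36 to 62 bp. Of these 6, PDE4B and NSD1 also had an RE of 3 mismatches and the other 4 had none. The PDE4B repeat is shown, with capitals at the last base of each unit.
PDE4B (chr1:66866518-66866542): tgtcTtgtcTtgtcTtgtcTtgtcT
PDE4B, a cAMP phosphodiesterase gene, had fold enrichments of 14.6 for WT and 15.7 for K120R p53 at this repeat, 46.5 kb from its start. The intronic repeat of UCHL3, a ubiquitin hydrolase gene, had 15.6 and 11.7, that of UBR3 10.9 and 10.5 and that of FOXP2, a forkhead factor gene, 10.5 and 8.76. NSD1, a histone methyltransferase gene, had 8.61 and 7.13, and KMT5B, another, 5.43 and 8.82.

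With a spacer of up to 13 bp allowed between the decamers, 89.5% of members had an RE, a difference of -0.119 points from K120R-unbound sites (interval -2.60 to 2.09). A run of at least 20 alternating purines and pyrimidines lay in 4.17% of member windows, 1.04% of K120R-unbound windows and 1.73% of reference windows.

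The heights of the peaks, which the rule used through the peak calls, are given as a description. WT fold enrichment of the members had a median of 10.1 (quartiles 6.77 and 15.7, range 2.46 to 42.6), and K120R fold enrichment a median of 7.19 (quartiles 5.68 and 9.28, range 3.13 to 28.1). The median WT value was 6.64 at K120R-unbound sites and 32.2 at shared sites also bound untreated. The rank correlation of WT and K120R fold enrichment was 0.27 over the 839 members and 0.45 over the 253 shared sites also bound untreated; each library contributed 1 value per site. Within the members the number of mismatches ran against WT fold enrichment (rho -0.23, 670 sites) and hardly with K120R fold enrichment (rho -0.03). Median K120R fold enrichment was 7.51 at 0 and at 1 G/C bps, 6.56 at 2, 6.94 at 3 and 6.16 at 4, the last from 4 sites.

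**Figure D4:**
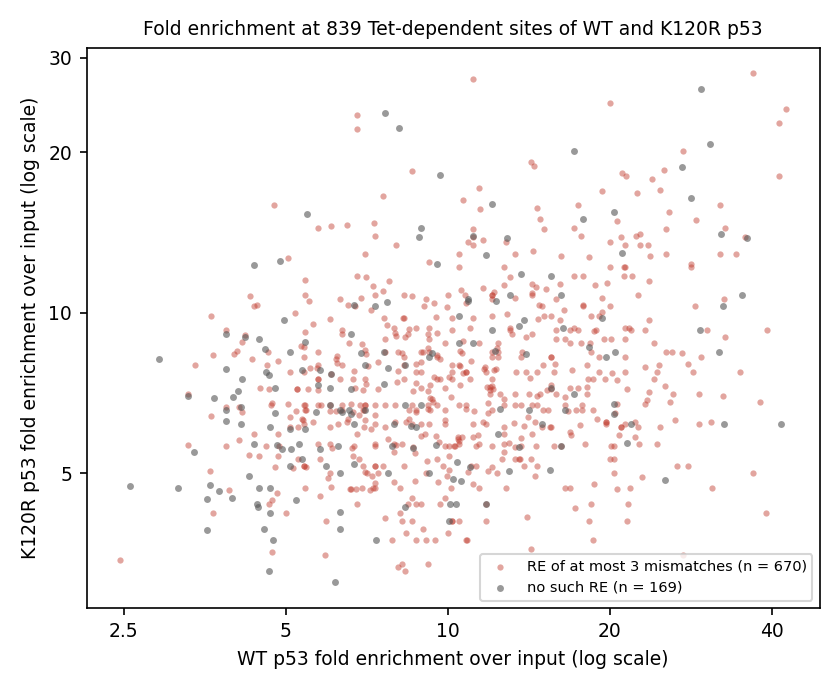
Fold enrichment over input of WT p53 (x axis) and K120R p53 (y axis) at the 839 members, both on log scales and each on the scale of its own peak list; red points have an RE of at most 3 mismatches (n = 670), and grey points none (n = 169). The cloud is broad, with a rank correlation of 0.27.

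The tallest member for WT p53 lay in an intron of ALOX5, the 5-lipoxygenase gene, at 42.6 for WT and 24.1 for K120R p53. The RE was gaAcatgTcagaGcatgTgg (chr10:45933994-45934013), with 1 G/C bp and 3 mismatches. GTDC1, a glycosyltransferase-like gene, held the largest K120R value of the members, 28.1, with 37.0 for WT in an intron. Near METRNL, which encodes a secreted factor, the values were 41.4 and 22.7, and in TJP1, the gene of the tight junction protein ZO-1, 41.4 and 18.003. Other tall WT members had lower values for K120R p53: a site upstream of FAM3C had 39.1 and 4.22, MYO16 41.7 and 6.20, C12orf42 36.9 and 5.01 and LMNTD1 38.1 and 6.81. The 12 tallest WT members therefore ran from 4.22 to 28.1 for K120R p53.

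Other members were chosen for a tall K120R peak. The intronic site of CAMK2B, a calcium/calmodulin-dependent kinase gene, had 27.4 for K120R and 11.1 for WT p53. TRPC4, a cation channel gene, had 23.6 and 7.64 at an upstream site, DEGS2 23.4 and 6.80, and CCDC40 22.2 and 8.12 at a coding exon with no RE. METTL15 had 24.7 and 20.1. Since the lists differ in scale, an excess of the K120R number over the WT number is not a measured excess of binding.
CAMK2B (chr7:44286108-44286127): gaAcatgCccacAcatgTac
TRPC4 (chr13:38530794-38530813): gtAcaagTcatgActtgTac
METTL15 (chr11:28161581-28161600): gtGcatgTgcagAcatgTcc
TRPC4 had 4 mismatches and falls outside the RE count although both cores were intact and it held 0 G/C bps.

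REs with 0 mismatches and a tall WT peak were found at CCNG2, NEGR1, MIER3, TGFB2 and BICD1. The CCNG2 site, in an intron of the gene for cyclin G2 as annotated with its longest transcripts, had 35.0 for WT p53 at agGcatgTttggAcatgTct (chr4:78263760-78263779). It overlapped 2 K120R peaks. The taller, with 7.74, was 77 bp long and had its summit 214 bp from the WT summit, away from this RE. A second member nearby, with 1 mismatch in a core, had 17.7 and 6.57 at agGcatgTttggAtatgTct (chr4:78265350-78265369). NEGR1, an adhesion molecule gene, had 32.8 and 14.4. The RE of BICD1 carried 3 G/C bps, and its K120R fold enrichment was 5.89 beside 20.9 for WT p53.

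Overlap of the WT and K120R peaks was required by the rule, with median peak lengths of 361 and 242 bp, so that the distance between summits is a description bounded by it. The WT and K120R summits lay a median of 34 bp apart (quartiles 16 and 67), within 50 bp at 65.4% of members and within 100 bp at 88.1%. The centre of the RE was a median of 15.5 bp from the WT summit and 26.5 bp from the K120R summit. The RE was sought only within 100 bp of the WT summit, with ties to the nearest, so that these distances are not comparable. Of the members 30 overlapped more than 1 K120R peak, and there the K120R values are those of the peak with the largest fold enrichment. At 2 members the summits lay far apart. Both were wide WT peaks on chromosome X whose nearest gene was TAB3, and they overlapped 15 and 6 K120R peaks.

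The position of members relative to genes did not differ detectably from that of K120R-unbound sites near starts. A summit lay within 1 kb of the start of a protein-coding transcript at 56 members, 6.67%, in an exon elsewhere at 2.98%, in an intron at 44.2% and between genes at 46.1%. The share within 1 kb of a start was 5.09% at K120R-unbound sites (difference 1.59, interval -0.128 to 3.61) and 12.6% at shared sites also bound untreated (difference -5.97, interval -10.9 to -1.95).

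Members were found at 23 of 158 listed p53 target genes (within the gene or 10 kb of it), 14.6%, against 615 of 20136 protein-coding genes, 3.05%. The lists were chosen with earlier results of these data known. With a -log10 q-value of at least 5 in both Tet-treated lists 17 of the genes had a member, and with at least 10, 10 had. WT p53 as a whole had a peak at 89 of the listed genes, and 25.8% of those (interval 17.1 to 36.2) had a member, against 21.9% (interval 20.4 to 23.5) of all genes with a WT peak; the intervals overlapped. At 12 of the 23 genes members were the only WT Tet-treated peaks. At 5 there was also a shared site bound untreated, and at 7 a K120R-unbound site. Of the 25 member sites at listed genes 22 had an RE, 14 of them with 0 or 1 G/C bps, and 14 lay within 1 kb of the gene's start.

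Genes of cell cycle arrest and senescence with a member numbered 5 of 21, among them CDKN1A, E2F7, FBXW7 and PRDM1. At E2F7, a repressor of cell cycle genes, the site 517 bp from the start had 14.6 for WT and 11.2 for K120R p53, at an RE with 3 G/C bps. FBXW7, the substrate receptor of an ubiquitin ligase, had 12.9 and 9.95 at a coding exon. PRDM1, a transcriptional repressor, held 2 members, with 13.98 and 8.998 at one and 10.9 and 3.75 at the other.

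Apoptosis genes with a member numbered 5 of 29: PMAIP1, TP53I3, PIDD1, BCL2L1 and IER3. The K120R peaks at PMAIP1, BCL2L1 and IER3 had -log10 q-values of 2.67, 1.499 and 1.98, near the caller's threshold. With at least 5 required in both Tet-treated lists 2 of these genes remained (TP53I3 and PIDD1), and 5 of cell cycle arrest. Of all 839 members 594 remained. Some WT Tet-treated peak lay at 19 of the apoptosis genes and at 17 of those of cell cycle arrest. No share over all genes was counted at this q-value, so that the 2 lists are not compared. PMAIP1 (NOXA), a BH3-only activator of apoptosis, had 9.97 for WT and 4.95 for K120R p53 upstream of its start, at an RE with 2 G/C bps and 2 core mismatches. PIDD1, a death domain protein, had 20.4 and 6.75 at a UTR exon, where the best 20 bp had 4 mismatches and was not counted as an RE. BCL2L1, which encodes the anti-apoptotic BCL-XL, had 9.21 and 3.38 at an intronic RE with 1 mismatch and 0 G/C bps. IER3 had 10.0 and 4.07. TP53I3 (PIG3), an oxidoreductase gene, had 7.71 and 10.5 at a UTR exon 64 bp from a start, with no RE. K120R fold enrichment at these 5 genes ran from 3.38 at BCL2L1 to 10.5 at TP53I3, and at the named genes of cell cycle arrest from 3.75 to 11.2.

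Genes of p53 feedback and its family gave 5 of 14 matched genes: MDM4, PPM1D, CCNG2, TRIM22 and TNFAIP8. MDM4, an inhibitor of p53, had 23.2 and 7.91 in an intron 418 bp from a start. PPM1D, the phosphatase WIP1, had 8.03 and 9.05 at a UTR exon. TRIM22 had 26.4 and 6.30, and TNFAIP8 15.9 and 10.6. DNA repair and replication stress gave 1 of 18, RAD51C, a gene of homologous recombination, with 9.68 and 8.20. Metabolism, redox and autophagy gave 2 of 25, among them PANK1, a pantothenate kinase gene with 11.1 and 5.16. Secreted factors, receptors and matrix gave 3 of 26: GDF15, a stress-induced cytokine with 8.23 and 4.07, ICAM1, an adhesion receptor with 8.05 and 7.42, and CDH8 with 9.87 and 6.20. With a -log10 q-value of at least 5 the metabolism list had 1 gene and the secreted list 1, ICAM1. Transcription and chromatin regulators gave 2 of 25, NHLH2 with 14.2 and 7.04 and SERTAD2 with 13.1 and 9.28.

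**Figure D5:**
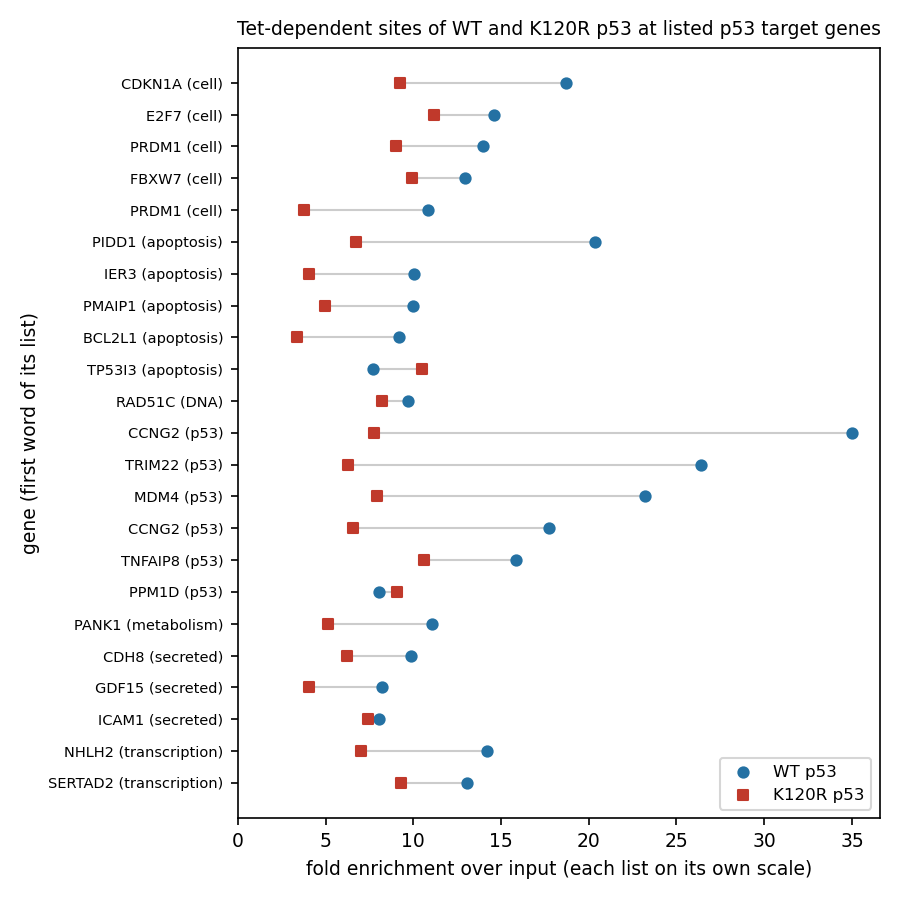
Fold enrichment over input (x axis, starting at 0) at 23 of the member sites of listed p53 target genes, 1 row per site with the gene and the first word of its list; blue circles are WT p53 and red squares K120R p53, each on the scale of its own peak list. K120R p53 runs from 3.38 to 11.2 and WT p53 from 7.71 to 35.0.

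A K120R peak was present without Tet at 2 members, in a background of 0.139% of all WT Tet-treated peaks. The first lay 43.8 kb upstream of SAMD11 and the second in ADAP1, 609 bp from a start, and neither held an RE, with 6 and 9 mismatches in the best 20 bp. Their K120R fold enrichments after Tet were 7.82 and 12.8.

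At the limits of the rule, the members with the least overlap were at MBNL1 (8 bp), DMTN (9 bp) and MAD1L1 (23 bp), with K120R fold enrichments of 7.22, 5.64 and 4.38. Just outside, K120R peaks lay 1 bp from the WT peak at PLEKHA8, 51 bp at MBD6 and 81 bp at DEFB115. On the untreated side the nearest peak was 271 bp from a member near HGSNAT, 535 bp from one at YBX3 and 1131 bp from one at NBPF10, while STK11, PCNX1 and PSD3 were outside by overlaps of 41, 64 and 64 bp.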

How the data were processed

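ChIP-seq of p53 was made in H1299 cells for WT and K120R p53, untreated and Tet-treated, with 1 library per condition; the labels give the Tet dose as 1 µg/µl, the methods per ml. Per the study's methods, the authors aligned reads to GRCh37 (hg19) with BWA-MEM and called peaks with MACS. Per the file headers, peaks were called for each library, with the matching input as control, in MACS 2.1.1.20160309 at a q-value of 0.05, keeping 1 tag per position (tags of 75 bp). The deposited tables give, per peak, the pileup (a signal of tag coverage), the fold enrichment over the control (a ratio), and the -log10 p-value and q-value, all by the authors. The deposited interval lists repeat these with a score and the summit position, and held the same peaks. Depth was 33059650 to 34857204 ChIP tags. With 1 library per condition no p-value is given, and intervals cover only counting error over sites or, for cores and single pairs of positions, over decamers.

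From the tables, overlaps of at least 1 bp were counted in Python 3.11.15 (scipy 1.17.1). For each WT summit, the 20 bp with fewest mismatches to the p53 consensus were found in GRCh37 within 100 bp on either side, ties going to the one nearest the summit. Genes came from GENCODE 44 lifted to GRCh37; sites are named after the protein-coding gene they lie in, or otherwise the one with the nearest start. Shares have 95% Clopper-Pearson intervals, differences of shares Newcombe intervals, medians order-statistic intervals, and differences of means normal intervals from the SD over sites. Sites named were taken from the 12 tallest for WT, the 6 others tallest for K120R, those at listed genes, the 5 tallest with 0 mismatches, the tallest without an RE, those with an untreated K120R peak and the 3 at each limit of the rule, of which not all are described. The K120R-unbound contrast sites, the copied REs, the repeat sites and the other sites at CDKN1A were chosen after their values were seen. Members, gene lists and tests were chosen with earlier results of these data known; the copies and tandem repeats were examined after seeing the sequences. The code was tested on simulated sequences and peaks. Repeat annotation was not used here. Some items are not reported here, and the plot of listed genes leaves their sites out.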

Additional observations from a re-analysis of the deposited data

How the results depend on the processing

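No paired analysis was possible because each condition was 1 library, and no replicate could be left out. Over 114 comparisons of a value with an alternative setting 81 stayed within the interval of the value, or within 1.5 times a count, 33 moved out of it and none changed the sign of a difference whose interval excluded 0. Only the difference in G/C at the flanking positions (26 comparisons) and a difference in repeat share (5) were of that kind. The difference in RE share, whose interval included 0, did change sign. Requiring a -log10 q of at least 10 in both Tet-treated lists left 265 members, 9.11% of the 2908 WT peaks that passed this cut. Their median fold enrichments were 13.1 (WT) and 10.6 (K120R), with 8.68% within 1 kb of a start and summits 29 bp apart. They lay at 10 listed genes (added after seeing the data) and had 21.2% G/C at the flanking positions. Their RE share was 4.13 points below the K120R-unbound sites (value -4.13, interval -9.43 to 0.341). With a -log10 q of at least 5 the members were 15.05% of the 3948 WT peaks that passed, with medians of 11.1 and 8.25. With a fold enrichment of at least 5 the medians were 11.2 and 7.74 and the RE share 83.1%. The RE share was 70.4% in a window of 50 bp on each side (difference 4.17 points, interval 0.597 to 7.61), 18.2% with at most 1 mismatch, 51.8% with at most 2 and 89.5% with a spacer of up to 13 bp; 17.4% of members lay within 5 kb of a start, and the rank correlation by pileup was 0.34. The difference in G/C at the flanking positions was -30.6 points with at most 1 mismatch, -24.0 with exactly 3 mismatches, -24.9 and -31.8 in quartiles 2 and 4 of WT fold enrichment, and -23.4 with the REs the study lists (29.3% in the members). In settings added after seeing the data, this difference was -24.0 with exactly 3 mismatches and -16.7, -22.4 and -22.8 in quartiles 1, 2 and 4 of window G/C content. It was -22.5 with each distinct RE counted once, -22.0 with REs found at 1 peak and -23.4 without the commonest K120R-unbound family. The cause of these moves was not tested. Leaving out members with more than 1 K120R peak or a K120R peak without Tet, also added after seeing the data, gave -27.4. Sites below the authors' q-value threshold cannot be told apart from unbound ones. The part in missing K120R peaks of the shorter fragment length that the caller estimated for K120R was not tested.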
